A study of Mus musculus with 132 samples.

Results

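Distal CTCF sites without an ATAC peak were the CTCF peaks of 416B cells whose midpoint lay more than 2 kb from every gene start and that overlapped no ATAC-seq peak of wild-type mesoderm or of wild-type hematopoietic progenitor cells (HPCs). There were 27806 of them, 62.5% of the 44513 peaks in the CTCF list and 69.4% (Wilson 95% interval 69 to 69.9) of the 40049 distal ones. The rest of the distal sites overlapped an ATAC peak in both stages (3727 sites, 9.31%), in mesoderm only (7843 sites, 19.6%) or in HPCs only (673 sites, 1.68%), and a further 4464 CTCF sites were promoter-proximal. Sites without an ATAC peak are called closed here and those with one open, which refers to these lists only. Each list is a single set of intervals with no height or score, so no site has a replicate. Every interval given for a share of sites covers counting error only.

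The study followed mouse embryonic stem cells (mESCs) through in vitro differentiation to blood and asked how chromatin boundaries at Runx1, the gene for a transcription factor needed for blood stem cell emergence, relate to its expression. The CTCF list came from 2 ChIP-seq replicates of 416B, an immortalized mouse myeloid progenitor line, merged before peak calling. The ATAC lists came from Flk1+ mesoderm at day 4 (4 libraries merged, 76766 peaks) and CD41+ HPCs at day 7 (2 technical replicates merged, 29037 peaks), so binding and accessibility were measured in different cells. The labels give the ATAC cells as E14-TG2a wild type, and the study's methods add that they carried a Venus reporter at Runx1 and an mCherry transgene driven by the +23 enhancer. Expression came from poly(A)-minus RNA-seq of E14-TG2a cells. The wild-type libraries were 2 of undifferentiated mESCs at day 0 (technical replicates, with a ribosomal RNA depletion that the methods give for these cells), 3 of mesoderm (1 each of clones C8.1, C6.1 and B9.3) and 4 of HPCs (the same clones, B9.3 with 2 libraries). In P2-CTCF-KO and in P1-CTCF-KO lines, the CTCF site just upstream of the P2 or the P1 promoter of Runx1 was deleted with CRISPR/Cas9. They had 3 mesoderm libraries each (clones E7.1, E7.2 and E9.1 for P1, clones D2.1, D10.1 and E9.1 for P2), and 3 (P1) and 5 (P2) HPC libraries of those clones.

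CTCF is a zinc finger protein that binds a long, oriented DNA motif. It halts cohesin as cohesin extrudes chromatin loops, and convergent pairs of its sites often mark the edges of topologically associating domains (TADs). In rodents many CTCF motifs lie in B2 short interspersed elements, a family of retrotransposons that has spread copies of the motif through the genome. Whether a given site lies in such an element was not scored here, since no repeat annotation was used.

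The sequences of a few sites show a string of 12 letters that many sites of the group shared. A 20-base matrix of the CTCF motif was built from CTCF peaks outside the group and scored over the 200 bases at the centre of each peak, with a cutoff that 5% of neighbouring windows without a CTCF peak pass. In the following lines (NCBIM37, which is mm9, read 5′ to 3′ on the strand of the match), capitals mark the matched 20 bases. The sites shown hold the 12 letters that were most frequent among the matches of closed sites, CCAGAAGAGGGC. All are closed sites. They are the 5 such sites of the Runx1 TAD, 1 site in an intron of Pcmtd1 at the narrowest width in the list, and the best-scoring closed site of Dnah8, the gene holding the most closed sites.
chr16:92868323-92868362, plus strand, intergenic: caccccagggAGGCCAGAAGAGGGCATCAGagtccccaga
chr16:93009997-93010036, plus strand, intergenic: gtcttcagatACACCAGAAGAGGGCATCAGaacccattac
chr16:93107868-93107907, minus strand, intergenic: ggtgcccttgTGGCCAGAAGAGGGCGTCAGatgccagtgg
chr16:93158920-93158959, plus strand, intergenic: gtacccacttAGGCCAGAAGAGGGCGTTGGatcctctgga
chr16:93410751-93410790, minus strand, in 1700029J03Rik: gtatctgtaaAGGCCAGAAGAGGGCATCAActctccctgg
chr1:7089521-7089560, plus strand, intron of Pcmtd1: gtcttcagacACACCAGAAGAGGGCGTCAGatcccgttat
chr17:30893899-30893938, minus strand, intron of Dnah8: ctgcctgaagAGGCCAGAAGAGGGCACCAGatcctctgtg

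Sites with other letters are shown for contrast. These are the 4 closed sites inside introns of Runx1 and the best-scoring closed site of the Runx1 TAD, again with the matched 20 bases in capitals.
chr16:92615853-92615892, plus strand, intron of Runx1: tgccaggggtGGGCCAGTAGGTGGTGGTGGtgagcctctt
chr16:92709069-92709108, plus strand, intron of Runx1: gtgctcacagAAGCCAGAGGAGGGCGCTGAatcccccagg
chr16:92800355-92800394, plus strand, intron of Runx1: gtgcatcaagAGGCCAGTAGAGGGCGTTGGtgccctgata
chr16:92814778-92814817, plus strand, intron of Runx1: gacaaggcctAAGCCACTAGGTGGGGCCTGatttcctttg
chr16:93577139-93577178, minus strand, intergenic: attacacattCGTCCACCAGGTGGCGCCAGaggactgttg

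The letters CCAGAAGAGGGC were held by 5980 of the 23767 closed sites with a match, 25.2% (24.6 to 25.7). The string was picked as the commonest in closed sites, so its share there is not independent of that choice. The shares were 2.4% (1.93 to 2.98) for distal sites open in both stages, 4.62% (4.15 to 5.13) for those open in mesoderm only and 7.46% (5.6 to 9.86) for those open in HPCs only. The gap between closed and open sites was also present near promoters, where 25.3% of matched CTCF sites without an ATAC peak and 1.96% of those with one held the string. Seen from the other side, 93% of the 6427 distal CTCF sites with the string had no ATAC peak, against 63% of the 28242 distal sites with a match of other letters and 75.1% of the 5380 distal sites with no match. The next most frequent string, CCAGCAGAGGGC, had close shares in both classes (2.97% of matches in closed sites and 2.79% in sites open in both stages). Other frequent strings were commoner in closed sites, with CCAGAAGGGGGC at 1.98% and 0.304% and CCAGAAGAGGGT at 1.94% and 0.486%. These strings were likewise picked by their number in closed sites and are close variants of the commonest one, so they are not separate results.

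The bases around the string were also alike from site to site. Over the 10 bases after it, the commonest base was held by a median of 73.9% of the 5869 sites with a complete flank, against 43.7% in the 17320 sites with other letters. The commonest base at each position is written out here for both, with the 12 letters of the match in capitals.
sites holding the string, commonest bases: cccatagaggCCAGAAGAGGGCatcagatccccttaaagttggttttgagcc
sites with other letters, commonest bases: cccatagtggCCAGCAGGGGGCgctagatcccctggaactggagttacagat

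The string was common in the genome and mostly without a CTCF peak. On both strands of NCBIM37 it occurred 50332 times, of which 14.1% lay in a CTCF peak of 416B cells, 12.2% in one of the 27806 sites and 0.948% in an ATAC peak of either stage. Sites holding it lay a median of 20172 bp from a gene start, against 25194 bp for closed sites with other letters. Their median distance to the nearest ATAC peak was 8142 bp against 8180 bp for sites with other letters. They lay inside a gene span in 52.6% of cases against 49.7%, and in a GENCODE exon in 2.11% against 5.14%. Their share among matched sites ran from 18.5% on chromosome 18 to 29.4% on chromosome 11.

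Most closed sites had a match to the CTCF motif, as did most open ones. A match was found in 85.5% (85.1 to 85.9) of the sites, against 5.05% of neighbouring windows of the same length without a CTCF peak. Distal sites open in both stages had one in 88.4% (87.3 to 89.4) and promoter-proximal sites in 79.4%. Those open in mesoderm only had one in 89.5% (88.8 to 90.1) and those open in HPCs only in 87.7% (85 to 89.9). The matrix was built from these other classes, so closed and open sites were not scored on equal terms. At a cutoff passed by 1% of all neighbouring windows, the shares were 65.8% for closed sites and 63.6% for sites open in both stages. The shorter letters AGGNGGC, searched on both strands and partly overlapping the matrix, gave another order, with 29.1% of closed sites against 5477 of 54441 neighbouring windows, and 37.5% of sites open in both stages. The median distance from the peak centre to the match was 17 bp.

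Closed sites had a lower mean number of CpG than open ones, but the median was 2 in every distal class. The mean in closed sites was 2.22 ± 2.16 CpG per 200 bases (SD over sites, n = 27806), close to the 2.25 of the flanking windows. Sites open in both stages held 3.44 ± 3.59 and those open in mesoderm only 3.13 ± 3.09. Those open in HPCs only held 2.59 ± 2.58 and promoter-proximal sites 8.61 ± 8.2. Median GC content was 45.5% in closed sites, and 48.5%, 50%, 46% and 53.5% in the others in that order. Among closed sites, those with the 12-letter string held a mean of 1.77 CpG and those with other letters 2.41.

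Closed sites were narrow. The median width was 228 bp with quartiles at 179 and 276 bp, and 273 bp (237 and 314 bp) for distal sites open in both stages. At the lower end, 1741 sites sat at 140 bp, the narrowest width in the list, and at the upper end 45 sites were over 600 bp wide. The share of distal CTCF sites without an ATAC peak fell with width in equal-count bins, from 88.4% at 140 to 180 bp to 53.9% at 302 bp and more.

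**Figure D1:**
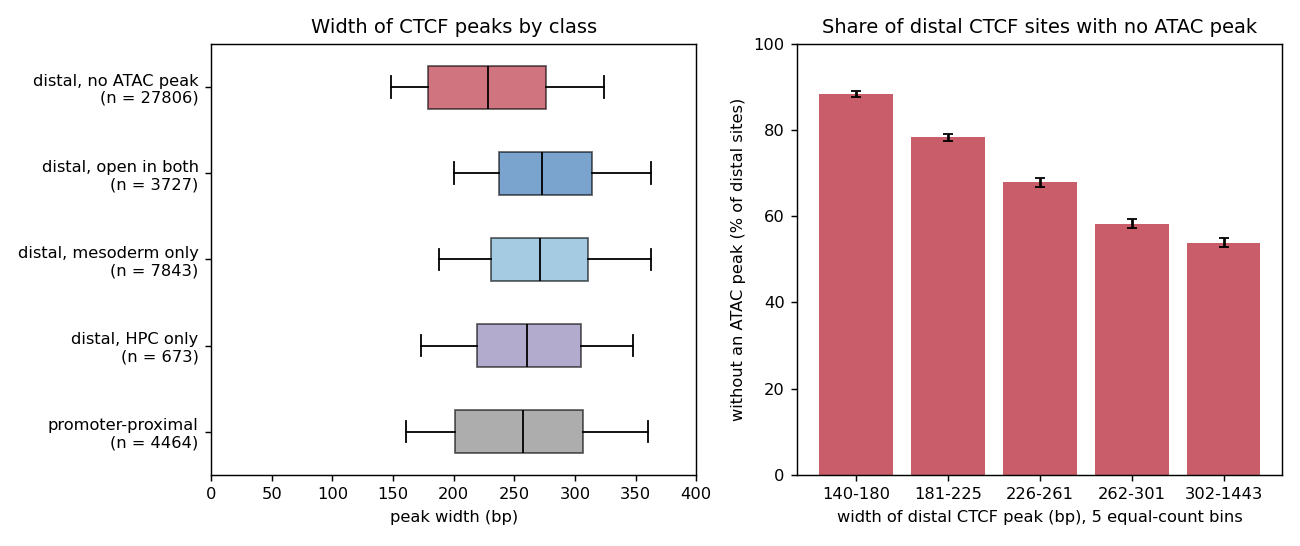
Left, width in bp of CTCF peaks by class, with the box at the quartiles, the line at the median and the whiskers at the 10th and 90th percentiles; distal sites without an ATAC peak have a median of 228 bp against 257 to 273 bp in the other classes. Right, percent of distal CTCF sites with no ATAC peak in 5 equal-count bins of width, with Wilson 95% intervals, falling from 88.4% to 53.9%.

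The motif share of closed sites and of sites open in both stages was furthest apart in the 181 to 225 bp bin, at 87.9% and 82.1%. In the narrowest bin 71.7% (70.7 to 72.8) of closed sites and 72.4% (66 to 78) of sites open in both stages had a match, and in the 262 to 301 bp bin the shares were 94.2% and 92.7%. The string was held by 31.5% of matched closed sites in the narrowest bin and by 17.5% in the widest. In sites open in both stages its share was 2.14% to 2.66% in every bin. The 2 widest closed sites, at 1443 and 911 bp, had no match at their centre, which read as short AG and AC repeats.

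**Figure D2:**
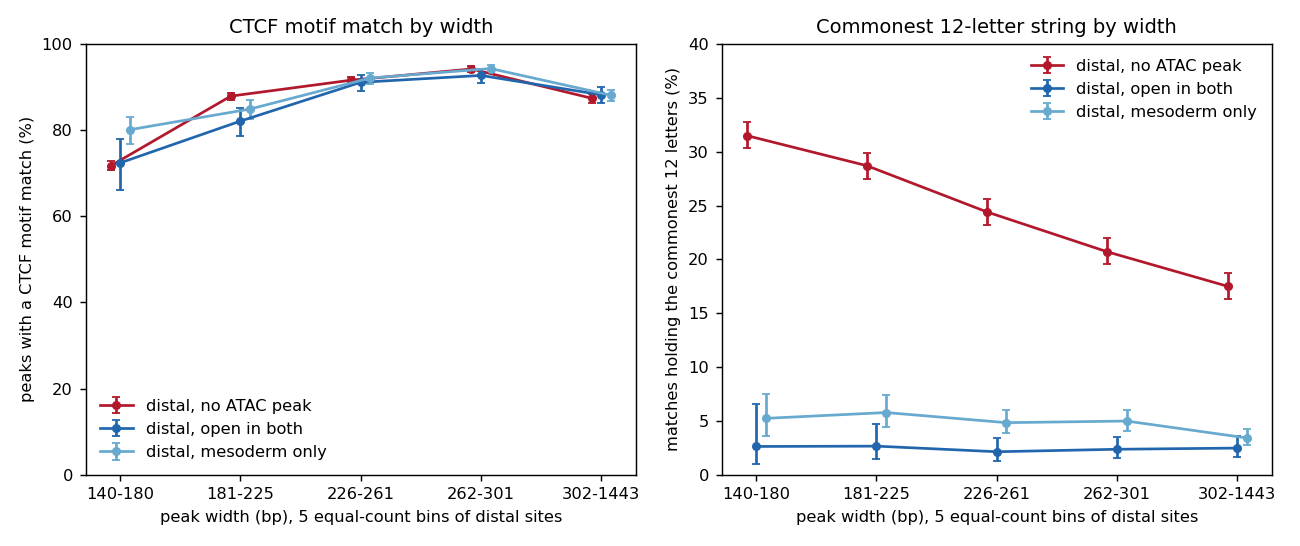
Left, percent of peaks with a CTCF motif match, and right, percent of matches that hold the commonest 12 letters of closed sites, in 5 equal-count bins of peak width in bp, with Wilson 95% intervals. On the left the 3 classes lie at 71.7% to 80.1% in the narrowest bin and 87.4% to 88.2% in the widest, while on the right distal sites without an ATAC peak run from 31.5% to 17.5% and sites open in both stages stay at 2.14% to 2.66%.

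Orientation showed little preference. Matches of closed sites lay on the plus strand in 50.3% of 23767 cases, and on the strand of the gene holding them in 51.6% (50.7 to 52.5) of 11808, against 46.2% (43.5 to 48.8) of 1345 for sites open in both stages. Of 13541 pairs of neighbouring CTCF sites that were both closed, 53.2% pointed the same way, 23.6% towards each other and 23.2% away from each other, and for 5429 pairs that were both outside the group the shares were 51.9%, 23% and 25.2%. The median distance between closed neighbours was 18519 bp.

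Closed sites lay inside genes more often than open ones. A gene span of the count table held 50.2% (49.6 to 50.7) of them, against 42.5% (40.9 to 44.1) of distal sites open in both stages and 46.8% and 47% of those open in mesoderm only and in HPCs only. Such spans cover 40.6% of the known bases of the genome. By GENCODE annotation at the midpoint of the site, 47.8% were intronic, 4.45% exonic and 47.8% intergenic. The midpoint lay in coding sequence for 1.51% and only in an untranslated region for 1.71%. Along the gene, 15.7% lay in the leading 20% of the span and 22.9% in the last, and the rule bars sites near a gene start.

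The median distance to the nearest gene start was 24775 bp, and that to the nearest ATAC peak 8244 bp with quartiles at 3339 and 18587 bp. An ATAC peak lay within 1 kb of 7.11% of the sites, and 1.05% had none within 100 kb. At the limits of the rule, the nearest sites inside lay 2001, 2001 and 2003 bp from a gene start and the nearest outside 2000, 2000 and 1999 bp. The closest ATAC peaks of closed sites were 0, 1 and 1 bp away, 132 closed sites had one under 100 bp away, and 125 of the 12243 open distal sites overlapped theirs by under 50 bp, the least by 2 bp.

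By chromosome, the share of distal CTCF sites without an ATAC peak ran from 64.3% on chromosome 3 to 75.2% on chromosome 5. Among the chromosomes holding any, density ran from 4.12 sites per known Mb on chromosome X to 17.9 on chromosome 11, and no site lay on chromosome Y. Of the 1 Mb windows with any site, 2381 in all, the median held 9, and 33 held more than 40. The densest began at 125 Mb on chromosome 5 and held 56, of 59 distal CTCF sites there.

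In the Runx1 TAD on chromosome 16, 21 of 30 CTCF sites had no ATAC peak and lay over 2 kb from a gene start. Of these, 4 lay in introns of Runx1, at 210.5, 117.2, 26.0 and 11.5 kb from its start, 1 lay in an intron of Clic6, and 14 lay in no gene span, mostly in the gene desert upstream of Runx1. The closed sites were narrower than the other 9, with median widths of 205 and 343 bp, and 20 of the 21 had a match, 12 on the plus strand. The site at -2.1 kb, next to the Runx1 start, was open in both stages, and that at 127.2 kb was open in mesoderm only, so neither was in the group. By position they lie in the windows that the study used to count reads from the P1 and the P2 promoter. Both counted as distal, at 2066 and 127240 bp from a gene start. The rule takes only the 5′ end of a gene's span as its start, so promoters inside a gene are not counted. Closed sites were a median of 6658 bp from an ATAC peak, and the one at -311.4 kb missed its nearest by 20 bp.

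**Figure D3:**
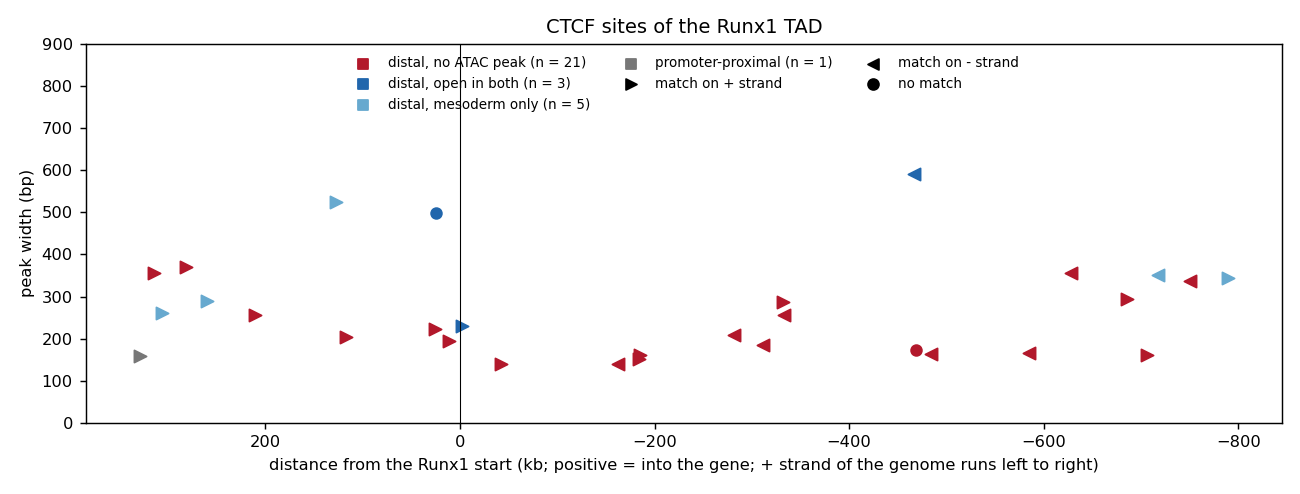
CTCF sites of the Runx1 TAD by distance from the Runx1 start in kb and peak width in bp, coloured by class, with arrowheads for the strand of the motif match and circles for sites with none. The 21 distal sites without an ATAC peak (red) lie on both sides of the start, with widths of 140 to 369 bp.

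Of the 24961 genes of the count table with 1 span, 7231 (29%) held at least 1 closed site, 4752 of them with no open distal CTCF site. Most held few, with 4027 holding 1 and 103 holding 8 or more. Long genes held them far more often, from 4.84% of genes up to 10 kb to 76% of genes over 100 kb. The median span was 48.3 kb for holding genes and 6.95 kb for genes with no distal CTCF site. Any comparison of holding genes with others is thus also one of long with short genes. Levels and calls between stages are therefore also given within bins of span.

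The RNA-seq libraries had 7805102 to 24406998 counts, of which 68.1% to 91% fell on entries of several loci or ribosomal RNA, leaving 878966 to 2288976 counts for other genes in the differentiated libraries. These depths limit the lowly expressed genes. Levels are given as CPM, the count scaled to library size within each fit, and per kb of span where genes are compared. At 30 to 100 kb of span, the median gene holding only closed sites had 0.0419, 0.0423 and 0.0456 CPM per kb in the 3 mesoderm libraries, or 0.0433 ± 0.00203 (SD, n = 3). Genes with sites of both kinds had 0.0267 ± 0.00215, genes with only open distal sites 0.0229 ± 0.00171 and genes with no distal CTCF site 0.00969 ± 0.00114. In HPCs (n = 4) the 4 values in the same order were 0.0463 ± 0.00263, 0.0225 ± 0.00661, 0.0235 ± 0.00425 and 0.00634 ± 0.00255. In other bins genes with only closed sites stood less apart from genes with both kinds. In mesoderm the means for these 2 kinds were 0.0268 and 0.0242 at 10 to 30 kb, 0.0238 ± 0.00259 and 0.0209 ± 0.00223 at 100 to 300 kb, and 0.00221 ± 0.000441 and 0.00325 ± 0.000893 over 300 kb. Genes with only open sites and genes with none were at 0.00537 ± 0.00161 and 0.00303 ± 0.000197 at 100 to 300 kb. No test was made, since genes are not replicates. The count table covers introns as well as exons, so these are levels over the whole span.

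Between wild-type mesoderm and HPCs, 1551 of 5390 tested holding genes were called (28.8%), 710 higher and 841 lower in HPCs, against a background of 23.3% of all 12899 tested genes (10.8% higher and 12.5% lower). A gene was called at an adjusted p under 0.05 (edgeR's quasi-likelihood test, Benjamini-Hochberg over all tested genes) and a log2 fold change beyond 1 in either direction. The p-values measure the spread between libraries, of which 2 HPC libraries share a clone. In bulk samples fewer cells of a type and less RNA per cell cannot be told apart. In genes with only closed sites the share was 24.9% (23.5 to 26.4), in genes with sites of both kinds 35.6%, in genes with only open sites 28.2% and in genes with none 18.2%. The median log2 fold change of holding genes was 0.0, against -0.01 over all tested genes.

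Compared within bins of span, genes with only closed sites lay closer to genes with none. At 10 to 30 kb the shares called were 20% (17.7 to 22.5) for genes with only closed sites and 18.8% (17.3 to 20.4) for genes with none. At 30 to 100 kb they were 23.3% and 23.8%, while genes with sites of both kinds stood at 32.8% and those with only open sites at 34.5%. At 100 to 300 kb the 4 shares were 39.7%, 40.5%, 35.5% and 38.3%, with overlapping intervals. Of the 93 tested genes over 300 kb with only closed sites, 3 were called higher and 31 lower in HPCs, with a median log2 fold change of -1.44, and the 28 with no distal CTCF site had a median of -1.05.

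**Figure D4:**
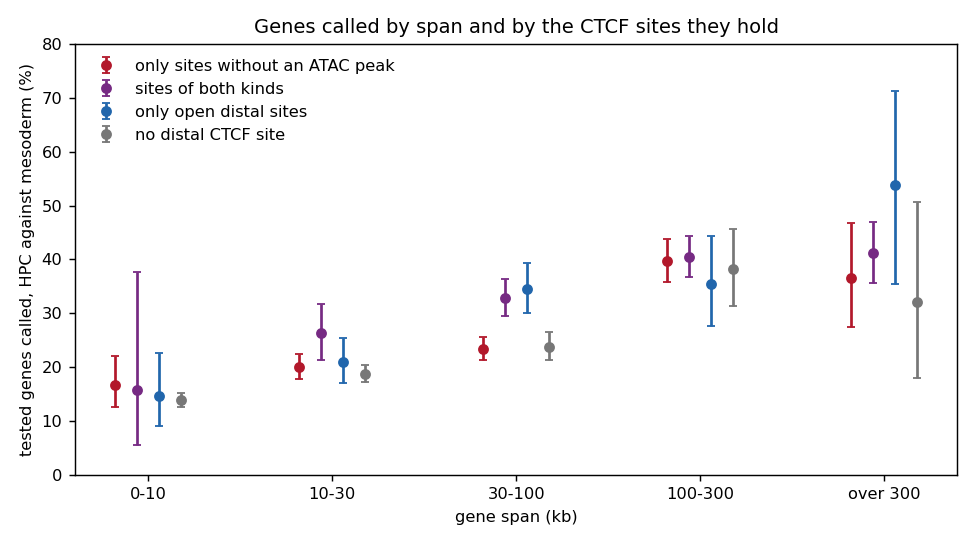
Percent of tested genes called between wild-type HPCs and mesoderm by gene span in kb and by the distal CTCF sites the gene holds, with Wilson 95% intervals. Genes with only closed sites (red) and genes with none (grey) lie at 23.3% and 23.8% for 30 to 100 kb, and the share rises with span in each kind of gene up to 300 kb.

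Among genes whose distal CTCF sites were all closed, 8 were chosen as higher in HPCs by smallest adjusted p. Epb41, which encodes the red cell membrane skeleton protein 4.1R and held 6 closed sites, had 16.9, 12.1 and 16.8 CPM in mesoderm and 109, 104, 139 and 158 in HPCs (log2 fold change 3.06 ± 0.24 SE, adjusted p 1.5e-05 by edgeR). Cbfa2t3, a corepressor that works with GATA1 and TAL1, had 4.94, 4.58 and 4.52 CPM in mesoderm and 32.1, 30.5, 23.9 and 33 in HPCs (2.67 ± 0.21, adjusted p 1.5e-05 by edgeR). Grap2, an adaptor in immune cell signalling, had 1.18 to 1.31 CPM in mesoderm and 17.5 to 32.5 in HPCs. All HPC libraries lay above all mesoderm libraries for these genes, as the choice of genes required and as was so, in either direction, for 32.9% of all tested genes.

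The others chosen as higher were Nmnat3, Ache, Aftph, Rgs10 and Usp46. Nmnat3, an enzyme of mitochondrial NAD synthesis, had 4 reads in all over the mesoderm libraries and 789 over the HPC libraries. Ache, acetylcholinesterase, had 1 read and 312, and Rgs10, a regulator of G protein signalling, 3 and 632, so no fold change is given for these 2. Aftph, a clathrin adaptor partner, rose from 2.66 to 2.78 CPM in mesoderm to 17.4 to 26.6 in HPCs, and Usp46, a deubiquitinase, from 2.46 to 2.66 to 14.8 to 22.8.

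A further 8 genes were chosen as lower in HPCs by the same rule. Rspo3, a secreted enhancer of Wnt signalling, had 9.17, 15.2 and 14 CPM in mesoderm and 0.463, 0.172, 0 and 0.224 in HPCs (log2 fold change -5.8 ± 0.44, adjusted p 1.5e-05 by edgeR). Lef1, a nuclear effector of Wnt signalling, had 8.23, 30.9 and 24.8 CPM in mesoderm and 2 reads in all in HPCs. Prtg, a cell surface receptor of the early embryo with 6 closed sites, had 33.6, 110 and 97.6 CPM in mesoderm and 2.76 to 3.7 in HPCs (-4.67 ± 0.39, adjusted p 1.8e-05). Ptk7, a planar cell polarity receptor with 5, fell by 4.19 ± 0.4 on the log2 scale. Tmeff1, the kinesin Kif1c, the SMAD anchor Zfyve9 and Pcdhgb8 were the others, with log2 fold changes of -4.01, -2.71, -2.56 and -2.3.

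**Figure D5:**
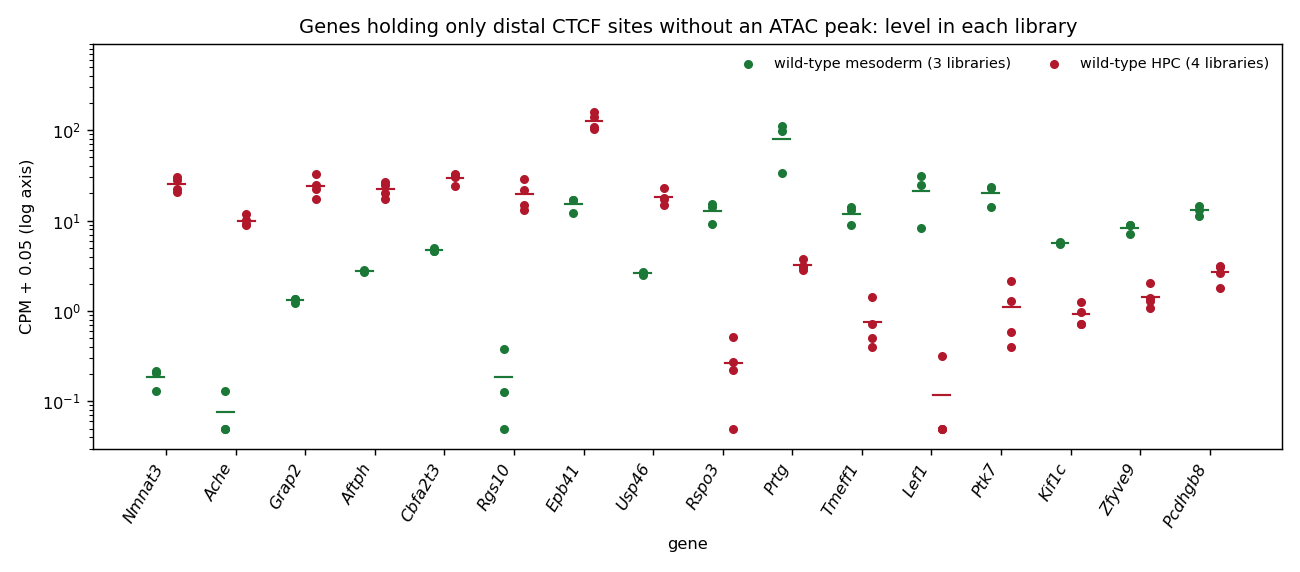
CPM + 0.05 on a log axis in each wild-type mesoderm (green) and HPC (red) library for the 16 genes with only closed sites that were chosen by adjusted p, 8 higher and 8 lower, with bars at the means. The stages do not overlap for any of the 16 genes, which is part of how they were chosen.

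The genes holding the most closed sites were mostly long and did not move as a group. Dnah8, an axonemal dynein heavy chain gene, held 26, and Mtus2 held 20, and both had libraries of the 2 stages that overlapped, at 0.491 to 0.888 and 0 to 2.43 CPM for Dnah8. Agap1, a regulator of endosomal traffic with 18, had 24.1, 28.3 and 45.9 CPM in mesoderm and 7.96 to 12.1 in HPCs (log2 fold change -1.73 ± 0.25, adjusted p 0.00044 by edgeR). Atxn1, a transcriptional corepressor with 16, had 4.94, 1.64 and 4.76 CPM in mesoderm and 14.7 to 25.8 in HPCs (2.4 ± 0.35, adjusted p 0.0005 by edgeR). Fry with 15 was called higher (2.0 ± 0.53, adjusted p 0.015 by edgeR) and Dpp6 with 15 lower (-2.02 ± 0.69, adjusted p 0.048), while Ksr2 with 17 was not called. Both calls were lost without the mesoderm library of clone C8.1, at 1.55 for Fry and -0.77 for Dpp6, and that of Dpp6 also without any 1 HPC library (-2.38 to -1.64), with libraries of 1 clone summed (-1.99) and with all 23 libraries in 1 fit (-2.0). Gm21083, Gm21149 and Gm21190 share overlapping spans on chromosome 5 and so share sites, and were too low to be tested.

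In the list of hemato-endothelial and progenitor genes, 11 of 20 held a closed site, against 29% of all genes. Span was not matched here, and 54.6% of genes of 30 to 100 kb and 76% of genes of 100 to 300 kb held one. Of the 11 holding genes, 10 were tested and 6 were called higher in HPCs with none lower, against 10.8% and 12.5% of all tested genes. The list was made of blood progenitor genes and the HPCs were CD41+ cells. List members without a closed site were not set beside them, so the calls cannot be tied to holding one. Runx1 had 5.41, 17 and 20.8 CPM in mesoderm and 125, 101, 117 and 182 in HPCs (log2 fold change 3.19 ± 0.43, adjusted p 0.00026 by edgeR). Ikzf1, the Ikaros lymphoid factor, had 2.62 ± 1.91 CPM in mesoderm (SD, n = 3) and 15.4 ± 4.28 in HPCs (SD, n = 4), with no overlap between libraries (log2 fold change 2.57 ± 0.48), and Lyl1, a relative of Tal1, 0.164 to 1.02 and 1.46 to 4.51 (2.37 ± 0.52). Fli1, Cbfa2t3 and Spi1 were the other 3. The call of Fli1 was lost without the mesoderm or the HPC library of clone C6.1 or of C8.1 (log2 fold change 1.29 to 1.86). It was also lost with the clone as a replicate block (1.83), in the same 7 libraries with no block (1.61) and with all 23 libraries in 1 fit (1.76). The call of Spi1 was lost without the mesoderm library of clone C8.1. Gata2, Erg, Etv6 and Myb were tested and not called, with log2 fold changes of -0.53, -2.39, 0.84 and 0.64.

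Some markers of other cell types moved in the same comparison, where 10.8% of all tested genes were called higher and 12.5% lower. A closed site was held by 1 of 10 mesoderm, 1 of 10 cardiac and paraxial, 3 of 9 endothelial, 1 of 7 pluripotency and 1 of 5 neural markers. The neural one, Tubb3, had 1 read in mesoderm and 4 in HPCs and was not called. Pdgfra, a mesoderm marker with 2 closed sites, had 7.45 to 11.8 CPM in mesoderm and 0 in 3 of the 4 HPC libraries, and the cardiac factor Gata4 with 1 fell by 4.45 ± 0.73 on the log2 scale. Of the 3 endothelial genes holding one, Flt4 and Eng were called lower and Flt1 was not, and the mesoderm library of clone B9.3 stood highest in all 3, at 17.6, 8.15 and 21.2 CPM against 0.982 to 8.15 in the other mesoderm libraries. Erg was likewise at 11.3 CPM in that library and at 0.327 and 2.34 in the others. Without that library Flt4 and Eng had log2 fold changes of -0.67 and -0.81 and were not called. With log2 fold changes that stayed large, the call of Flt4 was also lost without the HPC library C8.1, C6.1 or B9.3 (-3.05 to -2.62). The call of Eng was lost without the HPC library B9.3, B9.3-2 or C6.1 (-2.08 to -1.69) and with libraries of 1 clone summed (-2.0). The part of these cells in the results was not tested. Esrrb, a pluripotency gene, had 22.2 and 20.9 CPM in undifferentiated mESCs, at most 0.47 in mesoderm, and no read in HPCs, and its call was lost without the mesoderm library of clone B9.3 or C8.1 and with all 23 libraries in 1 fit.

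Loci known for dense or regulatory CTCF sites differed widely in how many closed sites they held. Of 58 clustered protocadherin genes, 27 held one, against 29% of all genes. They shared just 2 sites, since 8 Pcdha and 19 Pcdhg genes have overlapping spans. All 27 were called lower in HPCs, against 12.5% of all tested genes. The counts of the 27 share reads, so they are not 27 separate results. Protocadherins without a closed site were not set beside them, so the calls cannot be tied to holding one. Pcdhga3, for example, had 24.9 to 30.4 CPM in mesoderm and 4.38 to 7.51 in HPCs. Of 22 imprinted genes with 1 span, 11 held a closed site, against 29% of all genes, and length of span was again not matched. Of the 9 tested, 3 were called, against 23.3% of all tested genes. Trappc9 with 4 sites was called higher (1.56 ± 0.29) and Peg3 and Igf2r lower (-2.63 ± 0.55 and -1.71 ± 0.45), the last not called without the mesoderm library of clone B9.3 (-1.22). Hox genes (3 of 39), olfactory receptors (3 of 1130) and vomeronasal receptors (2 of 341) held one in the numbers given, against 29% of all genes and 4.84% of genes up to 10 kb, and none of those was high enough to be tested. Genes of CTCF and cohesin themselves held them in 9 of 17 cases, against 29% of all genes, span not being matched. Of the 8 tested none was called by edgeR, against 23.3% of all tested genes, and 8 genes are few to set beside that share.

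In the genes around Runx1, Clic6 held 1 closed site and was called lower in HPCs (0.235, 0.982 and 1.13 CPM in mesoderm, and 1 read in all in HPCs). Rcan1 with 4 and Cbr3 with 2 lie outside the TAD, and neither was called. Setd4 and Cbr1 held none.

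From undifferentiated mESCs to mesoderm, 1458 of 5390 tested holding genes were called (27.1%), 799 higher and 659 lower in mesoderm, against a background of 24.4% (10.7% higher and 13.7% lower). The share was 23.5% in genes with only closed sites, 33.3% in genes with sites of both kinds, 25.1% in genes with only open sites and 22% in genes with none. At 30 to 100 kb of span it was 21.6% (19.6 to 23.8) with only closed sites and 23.8% (21.3 to 26.4) with none, and at 100 to 300 kb 33% (29.2 to 37) and 40% (33 to 47.4). For all holding genes the median log2 fold change was 0.02 and that over all tested genes -0.18. The 2 undifferentiated libraries are technical replicates of 1 sample, so that arm holds 1 biological sample and its spread is technical only, and these p-values do not cover differences between cultures of mESCs. Stage and library preparation cannot be told apart in this comparison either, and without either undifferentiated library 561 or 540 holding genes were called.

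In mesoderm of the P2-CTCF-KO lines set against wild type, 2 of 4142 tested holding genes were called (0.0483%), both lower, against a background of 0.0342% (3 of 8778 genes). Cbfa2t3 had 2.62, 2.46 and 2.38 CPM in wild-type and 0.253, 0.34 and 0.484 in P2-CTCF-KO mesoderm, with 19 reads in all in the latter (log2 fold change -2.78 ± 0.31, adjusted p 0.022 by edgeR). Prkar2b, a regulatory subunit of protein kinase A with 3 closed sites, had 3.87, 2.2 and 4.09 CPM in wild-type and 0.557, 0.544 and 0.968 in P2-CTCF-KO mesoderm (-2.3 ± 0.31, adjusted p 0.037 by edgeR). The genotypes did not overlap for either gene, as for 19.3% of all tested genes, and P1-CTCF-KO mesoderm was at 1.32 to 2.12 CPM for Cbfa2t3 and 2.82 to 3.39 for Prkar2b. CPM values of this fit and of the stage fit are on different scales. Both calls were lost without the wild-type library of clone C8.1 or without any 1 of the P2-CTCF-KO libraries, with log2 fold changes still at -3.07 to -2.56 for Cbfa2t3 and -2.63 to -2.16 for Prkar2b, and 83 holding genes were called without the wild-type library of clone C6.1. At an unadjusted p under 0.05 by edgeR there were 784 holding genes (18.9%, against 16% of all tested genes). The share was 15% of genes with only closed sites and 25.8% of genes with sites of both kinds. The former had a median span of 36.3 kb and the latter of 88.2 kb, and no bins of span were made for the genotypes. DESeq2 called 113 holding genes. The share over all tested genes is not given for DESeq2 or for the fit without the wild-type library of clone C6.1.

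No holding gene was called by edgeR in P1-CTCF-KO mesoderm, P2-CTCF-KO HPCs or P1-CTCF-KO HPCs, where the background was 0% as well. At an unadjusted p under 0.05 the numbers of holding genes were 90 of 4142, 72 of 3678 and 110 of 3678, against 1.91%, 1.95% and 3.5% of all tested genes, and DESeq2 called 0 in each. Runx1 was not called in any of the 4, with 2.87, 9.15 and 11 CPM in wild-type mesoderm and 1.47, 5.5 and 4.89 in P2-CTCF-KO mesoderm (log2 fold change -0.96 ± 0.58, adjusted p 0.45 by edgeR).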

How the data were processed

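Per the labels and the study's methods, the authors mapped all reads to mm9, merged replicates and called peaks with MACS2 (p 0.02 against input for CTCF, adjusted p under 0.05 for ATAC on inserts under 100 bp). The deposited peak lists hold positions only. The authors aligned RNA-seq reads with STAR, removed duplicates and deposited featureCounts counts over exons and introns, with multi-locus entries as rows and strand setting not given in the sources used here. A gene start was the 5′ end of a row with 1 locus, and a gene held a site whose midpoint lay in its span. Counts of 23 libraries were tested with edgeR 4.0.16 (TMM, minimum count of 10, quasi-likelihood test) on R 4.3.3, with stage and genotype fits kept apart, and with DESeq2 1.42.0 as an alternative. The fits were tested on simulated data. Named genes were the 10 holding the most sites, the 8 higher and 8 lower with the smallest adjusted p that held no open distal site and did not overlap, up to 6 per genotype comparison, Runx1 TAD genes and members of the marker and CTCF-locus lists. Members and lists were chosen with earlier results of these data known. Sequences are of NCBIM37 and gene parts of GENCODE on that build. Same-stage replicate pairs all differed by more than sampling noise.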

Additional observations from a re-analysis of the deposited data

Results flagged for a closer look

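In 14 of the 109 groups of 4 or 5 libraries examined for the named genes, 1 library stood far from the others. For continuous values chance does this in about 1 group in 20, but a gene with reads in 1 library and 0 in the others meets the criterion by construction, and 13 of the 14 are of that kind. The exception was Peg3, an imprinted gene with 1 closed site, with 37.7 CPM in the wild-type HPC library B9.3 and 5.38 to 9.43 in the other 3. Pdgfra had 0.694 CPM in that library (6 reads) and Hoxc10 0.116 (1 read), with both at 0 in the other 3. In the HPC library C6.1, Lef1 had 0.266 CPM (2 reads), Clic6 0.133 and Kcne1 0.133 (1 read each), with 0 in the other 3. The Pcdha genes Pcdha1 to Pcdha8 each had 0.112 CPM (1 read) in the HPC library C8.1 and 0 in the other 3, and they share reads. Nothing can be read from groups that rest on 1 or 2 reads.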

How the results depend on the processing

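Only CTCF peaks over the median width gave 11304 closed sites, 57.7% of distal sites, 49.2% in a gene span and 36% with AGGNGGC. Only ATAC peaks over the median width of their list gave 86.6%, 49.5% and 30.9% for the same shares. An ATAC peak within 500 bp counted as overlap gave 67% closed, and GENCODE transcript starts 48.2% in a gene span. Leaving out the sites with the 12-letter string, chosen after seeing the data, gave 64.9%, 49.5% and 34.6%. Holding genes called in P2-CTCF-KO mesoderm were 113 with DESeq2, 275 with no filter on low counts and 12 with all 23 libraries in 1 fit. The share over all tested genes is not given for these settings or with 1 library left out. These counts therefore cannot be read as particular to holding genes. They numbered 0 to 83 with 1 library left out: 0 without wild-type C8.1 or P2-CTCF-KO D10.1, D2.1 or E9.1, 5 without wild-type B9.3 and 83 without wild-type C6.1. With 1 library left out the calls ranged from 1306 to 1687 for HPC against mesoderm and from 540 to 1369 for mesoderm against undifferentiated mESCs, with 561 and 540 when either technical replicate of undifferentiated mESCs was left out, where the lone library is assumed to vary like the others. For these ranges, too, the share over all tested genes is not given. The causes were not tested.

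With the clone as a replicate block, 1043 holding genes were called between HPCs and mesoderm over the 7 libraries, against 1090 in the same libraries with no replicate block (added after seeing the data). The share over all tested genes is not given for either fit, so these counts cannot be read as particular to holding genes. Libraries of 1 clone did not deviate together (correlation over genes -0.04 to 0.1), so the clone was not used as a pair. The block turned Gnas to -0.03 and Pds5a to -0.02 on the log2 scale, and Pds5a was -0.03 in the same libraries unblocked. Other uncalled log2 fold changes that turned sign with 1 library left out were Cbr1 (0.11 to 0.12), Dnah8 (-0.94), Flt1 (0.57), Kcnq1 (0.50), Pds5a (-0.01) and Setd4 (0.03). Of 60 named genes called between these stages, 52 were called under every alternative run, and Dpp6, Eng, Esrrb, Fli1, Flt4, Fry, Igf2r and Spi1 were not. Depth limits lowly expressed genes throughout.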
